A study of Mus musculus and Homo sapiens with 34 samples.

Results

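The MC38 libraries of the study fall into numbers 1 to 3 and numbers 4 to 6, and the comparison described here is between those number ranges, with culture as a term in the fit. It uses 10 of the 34 libraries of the series, chosen by the number in each library's label. MC38 is a mouse colorectal carcinoma line, and it was grown for 7 days in RPMI medium with fetal bovine serum in ultra-low attachment U-bottom plates, where cells gather into spheroids. Cells-alone spheroids had nothing added, and SIS ECM spheroids were seeded with a decellularised extracellular matrix. Numbers 1 to 3 hold 3 cells-alone libraries (1, 2 and 3) and 2 SIS ECM libraries (1 and 3). Numbers 4 to 6 hold 2 cells-alone libraries (4 and 5) and 3 SIS ECM libraries (4, 5 and 6). Each library was made from polyA RNA of 10 spheroids of one unmodified line, so the groups differ in no genotype or drug that the labels name. The labels do not say what the numbers stand for. They also do not say which libraries, if any, came from separate cultures, so the replicate error behind each p-value is the spread between libraries and could be technical.

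As background, several programs described below are controlled together in mammalian cells. Heat shock factor 1 drives cytosolic chaperone genes through repeated GAA units in their promoters. SREBP2 drives sterol synthesis when membrane cholesterol is low. HIF transcription factors drive glucose uptake, glycolysis and oxygen-sensing genes when oxygen is short, as it can be inside a spheroid. NRF2 drives cystine import and glutathione synthesis, and mTORC1 growth signalling sets the output of ribosomal proteins and, through TFEB, of lysosomal genes.

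Library totals ran from 18.9 to 24.2 (in 1e6 estimated counts) and did not separate the ranges (21.7 on average in numbers 1 to 3 and 21.9 in numbers 4 to 6). In 8 pairs of libraries from one culture and range, counts differed by more than sampling noise, with a chi-square divided by its degrees of freedom of 3.06 to 12.6, and no library repeated another. The first principal component, 34.8% of the variance, placed the 5 libraries of numbers 1 to 3 between −23.8 and −11.4 and the 5 of numbers 4 to 6 between 2.1 and 29.4, with no overlap. The labelled cell type was checked against its markers. The epithelial genes Epcam, Krt19 and Krt20 and the intestinal genes Cdx2, Hnf4a and Fabp1 had no count in any library, and Cdh1 reached at most 1.08 CPM (counts per 1e6 counts of the library), while the mesenchymal genes Vim (2250 to 2844 CPM) and Zeb1 (177 to 216) were high in all. Other members of these lists went the other way. The junction genes Tjp1 (109 to 151 CPM), Pkp1 (22.1 to 38.4) and Cldn1 (0.801 to 3.25) had counts in all 10 libraries. So did the intestinal genes Lgals4 (0.249 to 1.05) and Muc2 (0.0439 to 0.274). The mesenchymal genes Acta2, Tagln and Myl9 reached at most 0.0452, 0.271 and 0.2 CPM. Among 16 leukocyte markers Cd3e, Cd8a, Tyrobp and Nkg7 were at 0 in all 10 libraries, but Cd68 and Lyz2 had counts in all 10, and the list summed to 1.53 to 2.03 CPM in numbers 1 to 3 and 1.11 to 1.85 in numbers 4 to 6 (exact permutation p = 0.02, adjusted p = 0.0333). Among 8 endothelial markers Kdr and Tie1 were at 0, while Pecam1 was at 1.8 to 5.27 CPM and lower in numbers 4 to 6 (−0.61 ± 0.14, adjusted p = 0.00241). The endothelial list summed to 3.93 to 6.01 and 2.05 to 4.06 CPM (exact permutation p = 0.01, adjusted p = 0.0214). The part of these markers in the results was not tested.

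**Figure D1:**
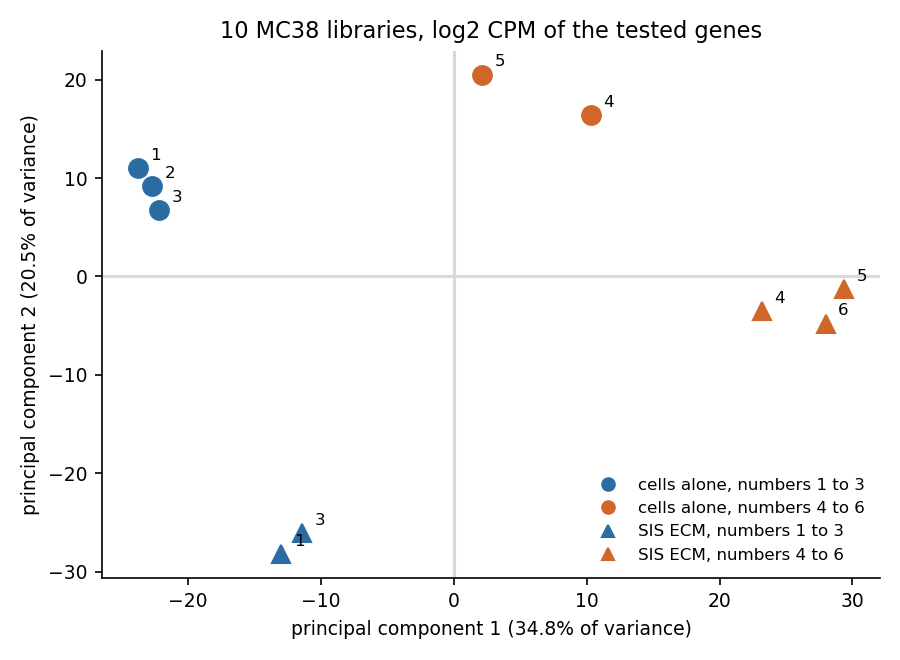
The first and second principal components of log2 CPM over the tested genes, with one point per library, circles for cells alone and triangles for SIS ECM. All 5 libraries of numbers 1 to 3 lie to the left of all 5 of numbers 4 to 6 on the first component (34.8% of the variance).

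The number ranges differed broadly but mostly by small amounts. Of 13522 genes tested, 5368 (39.7%) differed at an adjusted p below 0.05, 2676 higher (19.8%) and 2692 lower (19.9%) in numbers 4 to 6. The median absolute log2 fold change among them was 0.30, and 176 were at least 2-fold higher and 50 at least 2-fold lower. For 2784 genes (20.6%) all 5 libraries of one range lay on one side of all 5 of the other, 1303 above and 1481 below. All log2 fold changes below are numbers 4 to 6 minus numbers 1 to 3, CPM values are scaled by TMM factors, and higher or lower without other words means an adjusted p below 0.05. The median log2 fold change over all tested genes was 0.01.

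Cytosolic chaperones were higher in numbers 4 to 6 in both cultures. Hspa8, which encodes the constitutive Hsc70 chaperone (chromosome 9, 40800984 to 40810087), stood at 1789, 1766 and 1845 CPM in cells-alone libraries 1 to 3, 1792 and 1883 in SIS ECM libraries 1 and 3, 3604 and 3790 in cells-alone libraries 4 and 5, and 3978, 3740 and 3841 in SIS ECM libraries 4 to 6. Every library of numbers 4 to 6 was near double every library of numbers 1 to 3 in both cultures, with a log2 fold change of 1.05 ± 0.05 (SE; adjusted p = 3.7e-09). Hsph1, a nucleotide exchange factor for Hsc70 (chromosome 5, 149614287 to 149636376), was at 262, 257, 258, 291 and 263 CPM in numbers 1 to 3 and at 445, 445, 483, 468 and 486 in numbers 4 to 6, cells-alone libraries first (0.78 ± 0.04, adjusted p = 1.1e-08). The groups did not overlap here either, and the values within each range lay close together. The Hsp90 cochaperone Chordc1 was at 78.9 to 108 CPM and at 130 to 148 (0.62 ± 0.06, adjusted p = 1.4e-06). Of 20 cytosolic heat shock genes tested, 12 were higher, none was lower, and 11 had no overlap between the ranges, with a list median of 0.30. The other members that were higher included the inducible Hsp90 gene Hsp90aa1 (0.45 ± 0.07), the mitochondrial cochaperonin Hspe1 (0.40 ± 0.06) and the immunophilin Fkbp4 (0.44 ± 0.05). The constitutive Hsp90 gene Hsp90ab1 (−0.13 ± 0.05, adjusted p = 0.0526) and Hspa4 (−0.02 ± 0.05) did not pass. Counted within each culture, 12 members were higher in cells alone and 12 with SIS ECM.

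Promoters of members that were higher are shown because heat shock factor 1 binds paired GAA units. The sequences, from RefSeq on GRCm38.p6, run 5′ to 3′ on the gene's strand, with the match to GAANNTTC, which is its own reverse complement, in capitals. They were chosen after the values were seen.
Hspe1, chr1:55088024-55088111, plus strand: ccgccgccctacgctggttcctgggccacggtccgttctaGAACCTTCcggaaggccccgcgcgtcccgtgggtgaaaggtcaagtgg
Dnaja1, chr4:40722304-40722391, plus strand: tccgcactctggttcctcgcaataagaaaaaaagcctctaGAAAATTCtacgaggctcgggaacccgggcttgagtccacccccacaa
Fkbp4, chr6:128438760-128438847, minus strand: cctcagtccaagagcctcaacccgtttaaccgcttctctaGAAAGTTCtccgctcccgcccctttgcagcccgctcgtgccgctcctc
In the bases before the start, 5 of the 15 heat shock members with a promoter in the table held this motif (33.3%: Hspa1b, Dnaja1, Hspd1, Hspe1 and Fkbp4), against 7.73% of 27025 genes with a promoter there, counted the same way. The longer heat shock element with one further GAA unit, searched on both strands and containing the shorter one, was found in Hspd1 and Hspe1 and in 0.514% of all genes. Hspa1b and Hspd1 held the shorter motif but were not called. Promoters that overlap were not merged, so a site shared by members would count for each. Whether Hspd1 and Hspe1 share their site was not checked. The higher members Hsph1, Dnajb1 and Stip1 had a promoter in the table without it. Dnaja1 has further promoters there, at chr4:40722672-40722971 and chr4:40722680-40722979, with no match. A match is a string of letters and no evidence of binding.

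Nearly all ribosomal protein genes were higher. Of 78 cytosolic ribosomal protein genes tested, 76 were higher in numbers 4 to 6 and none was lower, with single log2 fold changes from 0.12 to 0.72, a median of 0.43, and 64 members with no overlap between the ranges. The small-subunit protein gene Rps14 was at 477, 482 and 482 CPM in cells-alone libraries 1 to 3, 432 and 487 in SIS ECM libraries 1 and 3, 742 and 825 in cells-alone libraries 4 and 5, and 690, 655 and 663 in SIS ECM libraries 4 to 6. No library of one range reached the other (0.62 ± 0.05, adjusted p = 7.7e-07). The large-subunit genes Rpl18 (0.62 ± 0.05, adjusted p = 7.7e-07) and Rpl35 (0.59 ± 0.05, adjusted p = 9.6e-07) behaved alike. As a share of each library, ribosomal protein genes took 4.1 to 4.67% of counts in numbers 1 to 3 and 5.25 to 6.35% in numbers 4 to 6, with no overlap (exact permutation p = 0.01 within cultures, the smallest that 100 arrangements allow; adjusted p = 0.0214 over 15 library measures). The genes that build ribosomes did not share this shift: of 29 ribosome biogenesis and nucleolar genes, 6 were higher and 8 lower. Many ribosomal protein genes have near-identical processed pseudogenes, so reads may be split between copies, and pseudogenes themselves took 2.22 to 2.84% of counts in numbers 1 to 3 and 3.64 to 4.28% in numbers 4 to 6.

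Respiratory chain genes were higher from both genomes. Transcripts encoded in mitochondrial DNA took 3.42 to 4.94% of counts in numbers 1 to 3 and 5.71 to 7.24% in numbers 4 to 6 (exact permutation p = 0.01, adjusted p = 0.0214). The ATP synthase subunit gene mt-Atp6 (mitochondrial genome, 7927 to 8607) was at 552, 563 and 607 CPM in cells-alone libraries 1 to 3, 853 and 745 in SIS ECM libraries 1 and 3, 1739 and 1141 in cells-alone libraries 4 and 5, and 1442, 1006 and 1151 in SIS ECM libraries 4 to 6. The ranges did not overlap (0.96 ± 0.14, adjusted p = 9.7e-05), and the gap was wider in cells alone. The complex I gene mt-Nd4l stood at 79.3 to 141 CPM against 174 to 232 (0.94 ± 0.12, adjusted p = 2.5e-05). Of 13 mitochondrially encoded protein genes, 12 were higher with a list median of 0.66. The exception was mt-Nd6, the one protein gene on the light strand, named after its values were seen, which was lower (28.3 to 39.2 CPM against 33.9 to 48.6, −0.33 ± 0.10, adjusted p = 0.0138, ranges overlapping).

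Of 74 nuclear-encoded respiratory chain subunits, 58 were higher, Sdha alone was lower, and 34 had no overlap between ranges (median 0.31). The cytochrome oxidase gene Cox7b was at 86, 89, 82.5, 98.3 and 103 CPM in numbers 1 to 3 and at 140, 140, 133, 125 and 123 in numbers 4 to 6, cells-alone libraries first. All 5 later-numbered libraries were above all 5 others (0.52 ± 0.06, adjusted p = 1.7e-05). The ATP synthase genes Atp5l (0.49 ± 0.05) and Atp5j2 (0.49 ± 0.06) were higher as well. Proteasome subunits, which degrade ubiquitinated proteins, were less uniform: 14 of 31 were higher, led by the core subunit Psmb3 (0.47 ± 0.06, adjusted p = 3.3e-05), and the regulatory subunits Psmd11 and Psmd2 were lower. Mitochondrial ribosome and genome upkeep genes had 10 of 32 higher and 3 lower, a share called of 40.6% against 39.7% over all tested genes.

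Fold changes also varied with transcript length. Across the 13522 genes, the log2 fold change had a Spearman correlation of −0.263 with transcript length and −0.136 with GC content, given as a description since the genes share the same libraries. The cultures differed in this: length gave −0.306 within cells alone and −0.151 within SIS ECM, and GC content −0.301 and 0.0481. After removing the trends with length and GC, ribosomal proteins had 69 of 78 higher (median 0.30), heat shock genes 11 of 20 higher and 1 lower (0.24), nuclear respiratory subunits 40 higher and 4 lower (0.16), mitochondrially encoded proteins 7 higher and 2 lower (0.24) and proteasome subunits 6 higher and 4 lower (0.03). The part of length or RNA quality in the group results was not tested otherwise.

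**Figure D2:**
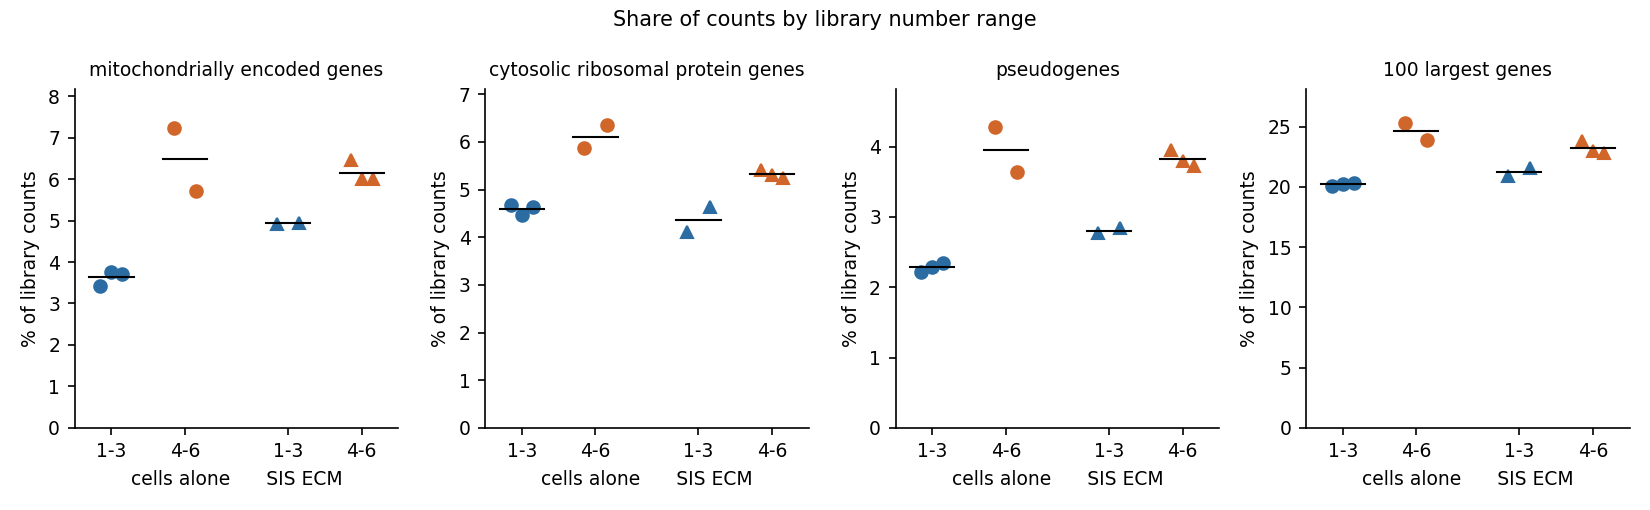
Percent of each library's counts taken by groups of genes, by culture and number range, one point per library and a bar at the group mean. Mitochondrially encoded genes lie at 3.42 to 4.94% in numbers 1 to 3 and at 5.71 to 7.24% in numbers 4 to 6, and ribosomal protein genes at 4.1 to 4.67% and 5.25 to 6.35%.

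Matrix genes were lower in numbers 4 to 6. Of 41 collagens and matrix glycoproteins tested, 30 were lower and 1, the collagen-binding Aspn, was higher (median −0.29). Fibrillin 1 (Fbn1), which forms microfibrils, was at 759, 735 and 721 CPM in cells-alone libraries 1 to 3, 591 and 570 in SIS ECM libraries 1 and 3, 479 and 502 in cells-alone libraries 4 and 5, and 360, 365 and 370 in SIS ECM libraries 4 to 6. Each culture shifted by a like amount and the ranges did not overlap (−0.63 ± 0.04, adjusted p = 1.0e-07). The laminin gene Lama4 (−0.75 ± 0.06), the fibrillar collagen gene Col5a3 (−0.65) and the fibrillar collagen gene Col3a1 (−0.65 ± 0.07) were lower too. Col3a1 ran from 1876 to 2798 CPM in numbers 1 to 3 and from 1210 to 2012 in numbers 4 to 6, so its ranges overlapped while each culture was separated. Only 7 of the 41 had all 5 libraries below the others, and without a culture term 19 were lower.

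Genes that cut and bind matrix were lower alongside it. Of 25 matrix proteases and inhibitors, 11 were lower, among them the protease inhibitor Serpine2 (−0.79 ± 0.06), the gelatinase Mmp2 (−0.51 ± 0.05) and the metalloprotease inhibitor Timp3 (−0.55 ± 0.06), and Mmp10 and Timp1 were higher. Of 17 integrins and matrix receptors, 10 were lower, including the laminin receptor subunit Itga6 (−0.50 ± 0.04), and 6 were lower without SIS ECM library 1. The TGF-beta receptor gene Tgfbr2 was at 87.4 to 95.8 CPM in numbers 1 to 3 and at 57.6 to 59.5 in numbers 4 to 6 (−0.63 ± 0.04, adjusted p = 9.6e-08). That receptor transduces a signal that induces matrix, and of 25 TGF-beta and YAP target genes 13 were lower and 3 higher.

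Fibroblast markers are in part matrix genes themselves. The 12 listed sum to 3700 to 4735 CPM in numbers 1 to 3 and 2715 to 3719 in numbers 4 to 6 (exact permutation p = 0.01, adjusted p = 0.0214), of which Col3a1, Dcn and Pdgfra make up most. Markers of the list differed in level: Thy1 and Tcf21 were at 0 in all 10 libraries and Col1a2 reached at most 0.319 CPM. Without TMM scaling, Dcn was at 947 to 1202 CPM, Pdgfra at 405 to 555 and Pdgfrb at 90.7 to 150. Of 9 tested markers 4 were lower and none higher. Their part in the matrix result was not tested, and in bulk RNA fewer cells of a type and less RNA per cell cannot be told apart.

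Lipid genes were lower by smaller amounts. Of 23 cholesterol synthesis and uptake genes, 12 were lower and none was higher (median −0.17). Hmgcs1, the enzyme that makes HMG-CoA for the mevalonate pathway, was at 471, 501 and 510 CPM in cells-alone libraries 1 to 3, 419 and 403 in SIS ECM libraries 1 and 3, 347 and 341 in cells-alone libraries 4 and 5, and 239, 234 and 238 in SIS ECM libraries 4 to 6. The ranges did not overlap (−0.66 ± 0.05, adjusted p = 6.7e-07). The squalene epoxidase gene Sqle (−0.47 ± 0.04) and Insig1 (−0.48 ± 0.05), which retains SREBP in the endoplasmic reticulum, followed. Of 17 fatty acid synthesis and storage genes, 11 were lower, among them the desaturases Scd2 (−0.49 ± 0.06) and Fads1 (−0.40 ± 0.06), and the elongase Elovl6 was higher.

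Promoter stretches of Hmgcs1 and Insig1 are shown for SREBP2 and its partner NF-Y, which binds CCAAT. The match is in capitals: TCACNCCAC, a form of the sterol response element, in Hmgcs1, and ATTGG, the reverse complement of CCAAT, in Insig1. Both were chosen after the values were seen.
Hmgcs1, chr13:119690174-119690262, plus strand: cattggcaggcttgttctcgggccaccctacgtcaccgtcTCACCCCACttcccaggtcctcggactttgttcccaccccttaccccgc
Insig1, chr5:28071162-28071240, plus strand: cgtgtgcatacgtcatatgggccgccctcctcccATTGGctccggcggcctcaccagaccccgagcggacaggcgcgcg
Searched on both strands before the start, TCACNCCAC was found in 1 of 16 cholesterol members with a promoter in the table and in 1.22% of all genes. CCAAT was found in 16 of 16 and in 37.5% of all genes. Members with CCAAT that were not called were Mvk, Pmvk, Mvd, Idi1, Tm7sf2, Msmo1, Nsdhl, Ebp and Dhcr7.

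Degradation and amino acid supply genes were also lower. Of 33 lysosomal protease and V-ATPase genes, 18 were lower and 2 higher (median −0.20), with 16 entirely below, including the lysosomal hydrolase gene Hexa (−0.44 ± 0.04, adjusted p = 2.9e-06). Of 22 autophagy genes, 11 were lower and 1 higher. Sqstm1, which encodes the p62 cargo receptor and is itself an NRF2 target, was at 570, 564, 564, 490 and 480 CPM in numbers 1 to 3 and at 340, 388, 305, 299 and 297 in numbers 4 to 6, cells-alone libraries first. No value crossed between ranges (−0.66 ± 0.04, adjusted p = 1.0e-07). The cystine importer gene Slc7a11 (chromosome 3, 49892526 to 50443614) was at 56.2, 54.7, 58.1, 56.2 and 57.5 CPM in numbers 1 to 3 and at 27.7, 27.2, 29.3, 28 and 28.5 in numbers 4 to 6. Both cultures fell into 2 tight levels (−1.01 ± 0.05, adjusted p = 3.7e-09). Glutamate-cysteine ligase, Gclc, which uses that cysteine, was lower as well (−0.44 ± 0.04), and of 23 NRF2 target and pentose phosphate genes 10 were lower and 3 higher. Of 15 amino acid transporters 10 were lower and none higher, such as the cationic transporter Slc7a1 (−0.48 ± 0.05), and of 20 aminoacyl-tRNA synthetases 10 were lower and 1 higher (Aars −0.40 ± 0.04, Gars −0.37 ± 0.04). Targets of ATF4, which induces many of these genes, had 7 of 20 lower and 1 higher.

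Among the proliferation genes that were called, more were higher than lower, more so in cells alone. Of 39 DNA replication genes 13 were higher and 5 lower, and of 32 mitotic genes 12 were higher and Incenp was lower. The shares called, 46.2% and 40.6%, lay near the 39.7% over all tested genes. The cyclin gene Ccne2 was at 36.4 to 49.9 CPM in numbers 1 to 3 and at 60.3 to 67.5 in numbers 4 to 6 (0.55 ± 0.06, adjusted p = 8.4e-06). Bub1, a spindle checkpoint kinase, was at 124 to 142 and at 169 to 193 CPM (0.40 ± 0.05, adjusted p = 2.2e-05). Both separated the ranges completely. The list medians were small, at 0.11 for replication and 0.04 for mitosis. The mitotic median (0.0418) was below the standard deviation of the list median between libraries of a range (0.0439). Within cells alone 19 replication genes were higher and 1 lower (median 0.17), and within SIS ECM 10 were higher and 6 lower (0.003). Mitotic genes had 13 higher and 3 lower within cells alone (median 0.11), and 9 higher and 3 lower within SIS ECM (0.005). The culture interaction was called for 11 replication genes, all toward lower values with SIS ECM. Chromatin regulators and other very long genes went the other way, with 10 of 24 lower and 1 higher (45.8% called). Within cells alone 16 of these were lower and none higher, and within SIS ECM 5 were lower and 3 higher. With the length and GC trends removed that list had 9 lower and 5 higher.

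**Figure D3:**
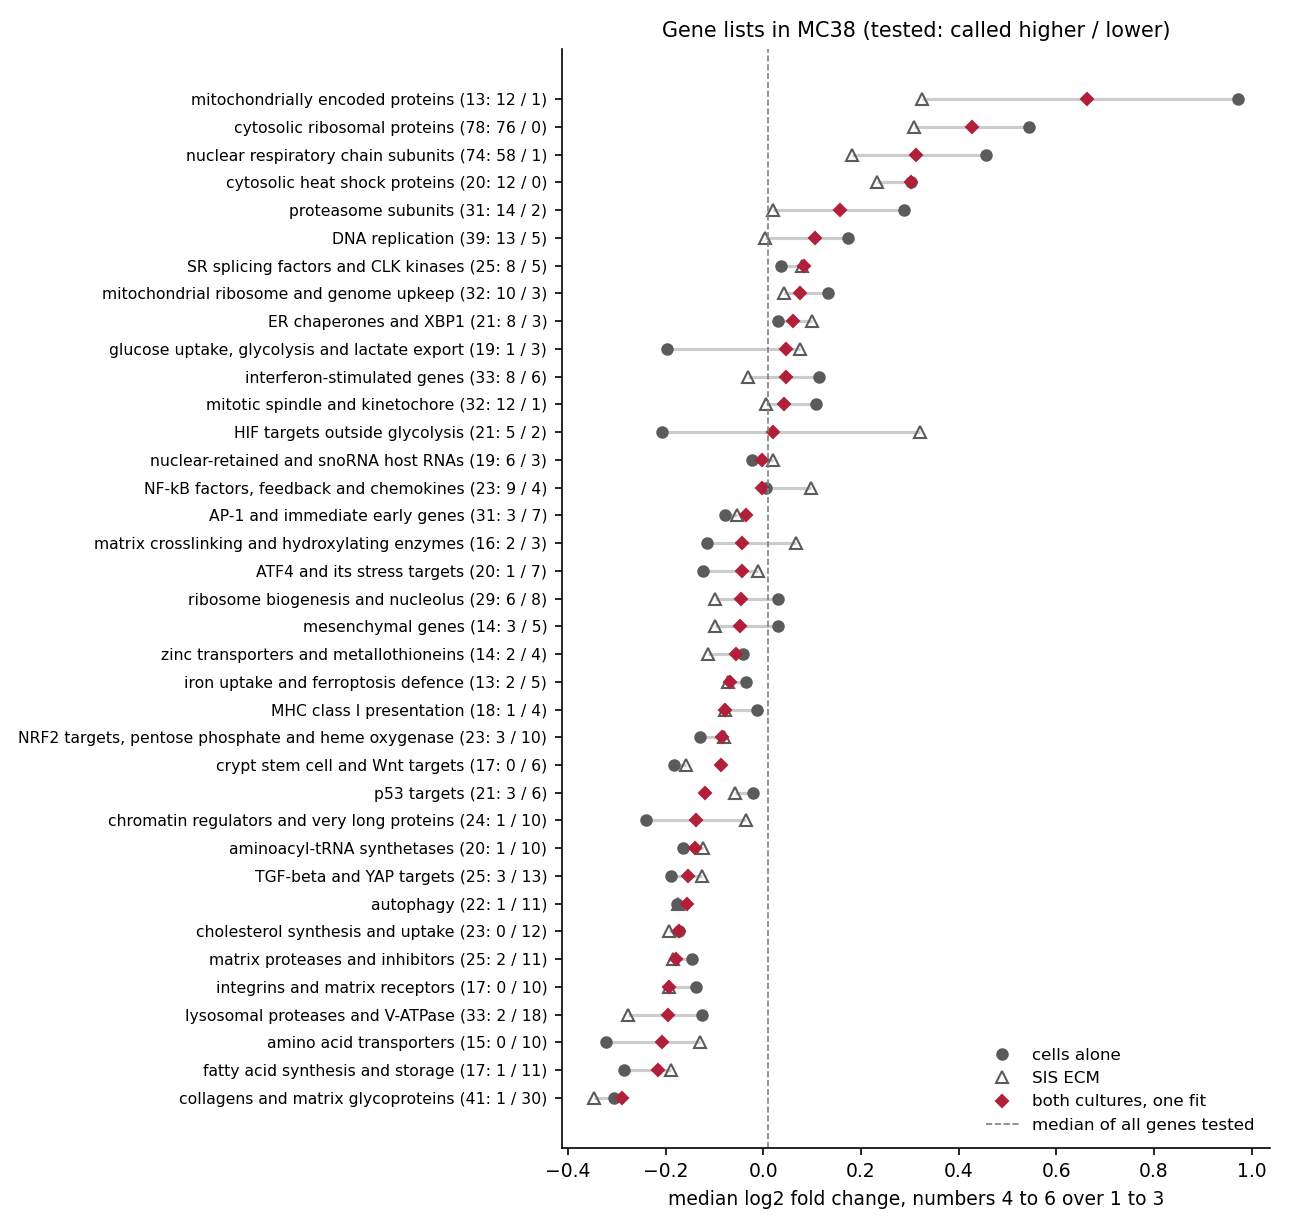
Median log2 fold change of each gene list, numbers 4 to 6 over 1 to 3, for both cultures in one fit (diamonds), cells alone (circles) and SIS ECM (triangles), with the dashed line at the median of all genes tested (0.01) and counts of members tested, higher and lower. Among the lists drawn, those with more than 12 members tested, mitochondrially encoded, ribosomal and respiratory genes lie highest and collagens lowest at −0.29.

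Beside these programs, single genes stood far apart between the ranges. By the naming rule the highest were the microRNA host transcript Mir99ahg, Fgf11, Hspa8, the ubiquitin ligase Trim7, Cntnap1, Banp, the transcription factor Ikzf2 (Helios), Zfp976, the non-coding Wincr1 and the phosphatase Ppm1e, with mt-Atp6 and mt-Nd4l given above. Mir99ahg was at 7, 7.86, 7.63, 9.82 and 11.8 CPM in numbers 1 to 3 and at 25.5, 16.5, 25.8, 22.3 and 23.7 in numbers 4 to 6, cells-alone libraries first. Cells-alone library 5 was the lowest of numbers 4 to 6 (1.31 ± 0.11, adjusted p = 9.9e-07). Banp, which binds unmethylated CGCG elements in promoters, was at 8.12 to 13.5 CPM and at 17.3 to 21.7 (0.99 ± 0.09, adjusted p = 1.1e-06). Ikzf2 was at 20.7 to 30.9 CPM and at 44.3 to 50.8 (0.93 ± 0.09, adjusted p = 1.5e-06).

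Rcor1, Kdm1b, Scml4 and Tle4 were among the 12 lowest. Rcor1, the CoREST scaffold (chromosome 12, 111039351 to 111115901), was at 199, 204 and 195 CPM in cells-alone libraries 1 to 3, 239 and 250 in SIS ECM libraries 1 and 3, 107 and 105 in cells-alone libraries 4 and 5, and 117, 114 and 118 in SIS ECM libraries 4 to 6. Numbers 4 to 6 were near the midpoint between 0 and numbers 1 to 3 in both cultures (−0.99 ± 0.04, adjusted p = 3.7e-09). Kdm1b, a histone H3 lysine demethylase (chromosome 13, 47043499 to 47085279), was at 105, 108, 114, 124 and 125 CPM and then at 54.2, 52.7, 48.6, 49.4 and 52.1 (−1.17 ± 0.06, adjusted p = 3.7e-09). The polycomb-related Scml4 was at 5.48 to 8.08 CPM and at 1.63 to 3.2 (−1.43 ± 0.17, adjusted p = 1.2e-05), and the Groucho corepressor Tle4 was at 17.7 to 26.3 and at 10.3 to 11.5 (−0.96 ± 0.09, adjusted p = 2.8e-06). The naming rule admits only genes whose ranges do not overlap.

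Secreted and surface genes made up most of the rest. Cilp, a cartilage matrix protein, was at 29.3, 28.5 and 26.6 CPM in cells-alone libraries 1 to 3, 15.8 and 11.2 in SIS ECM libraries 1 and 3, 10.9 and 10.7 in cells-alone libraries 4 and 5, and 5.18, 4.83 and 4.74 in SIS ECM libraries 4 to 6. The ranges did not overlap (−1.41 ± 0.09, adjusted p = 6.9e-08), and within each range the cells-alone libraries lay above the SIS ECM libraries. Lbp, which binds lipopolysaccharide, was lower by −1.21 ± 0.10, the secreted C1qtnf1 by −1.07 ± 0.09 and the chemokine scavenger Ackr3 by −1.07 ± 0.09. The growth factor Fgf1 (−1.0 ± 0.12), the adhesion protein Lrfn3 (−1.0 ± 0.11) and the recycling endosome effector Rab11fip1 (−1.05 ± 0.08) completed the 12 with Slc7a11.

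**Figure D4:**
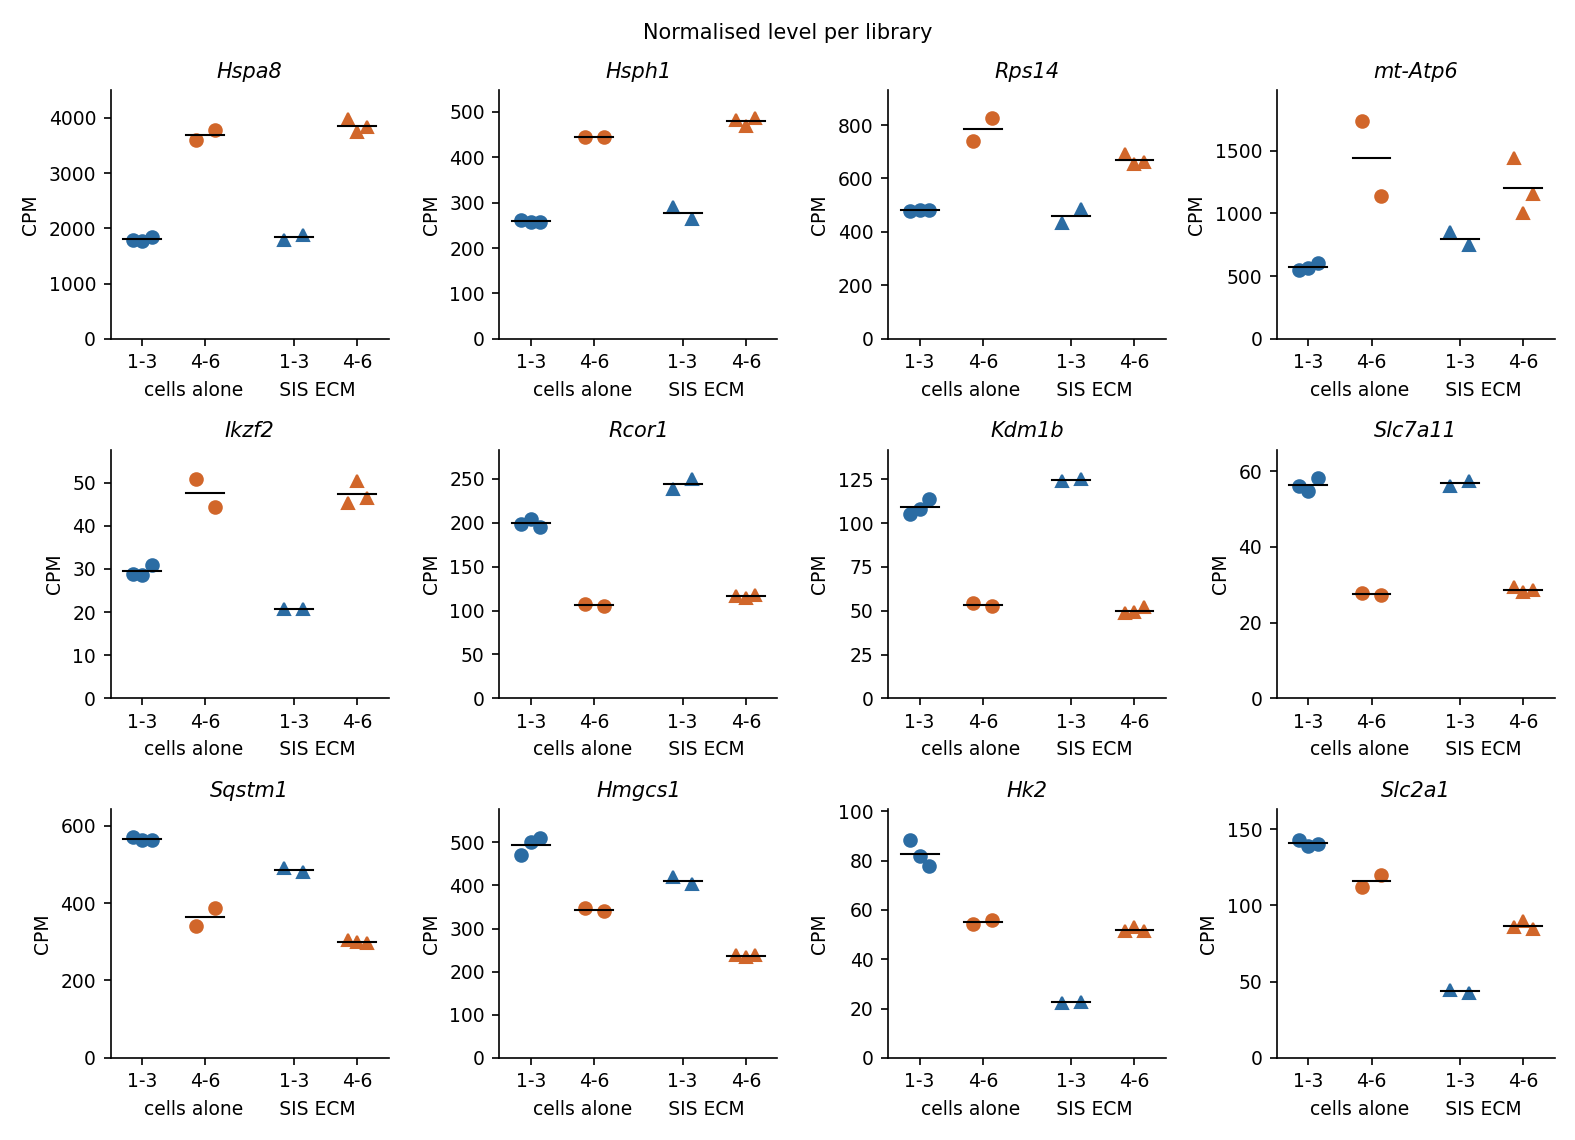
CPM in every library for 12 genes, by culture and number range, with a bar at the group mean and axes from 0. Hspa8, Hsph1, Rps14, mt-Atp6 and Ikzf2 are higher in numbers 4 to 6 and Rcor1, Kdm1b, Slc7a11, Sqstm1 and Hmgcs1 lower in both cultures, while Hk2 and Slc2a1 move in opposite directions in cells alone and with SIS ECM.

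The range difference depended on culture for many genes. Within cells alone 5163 genes (38.2%) differed between the ranges and within SIS ECM 5392 (39.9%). Of 2712 called in both, 2459 had the same direction and 253 the opposite one. Across all tested genes the log2 fold changes in the 2 cultures, which share no library, had a Pearson correlation of 0.405 (Spearman 0.465), a description over genes of the same tested set. The interaction of culture and range was called for 2839 genes (21.0%), of which 1690 had opposite signs in the cultures. This count depended on single libraries, at 1453 without SIS ECM library 3 and 1868 without cells-alone library 1. Its split also depended on scaling, at 1313 higher and 1526 lower with SIS ECM under TMM, 885 and 1434 by DESeq2, and 2320 and 609 with library totals alone, which move the median interaction of all genes from 0.00 to 0.10.

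Oxygen-responsive genes moved in opposite directions in the cultures. Of 21 HIF targets outside glycolysis, 12 were lower and 2 higher in numbers 4 to 6 within cells alone (median −0.21), whereas 14 were higher and none lower within SIS ECM (median 0.32). The interaction was called for 17, all toward higher values with SIS ECM, and for 16 to 19 in the same direction, with at most 1 in the other, when any library was left out or scaling was changed. Fitted over both cultures together, only 5 were higher (Bnip3, Mif, P4ha2, Vegfa and Ak4) and 2 lower (Ndrg1 and Bhlhe40). Egln3, a HIF prolyl hydroxylase, was at 182, 176 and 174 CPM in cells-alone libraries 1 to 3 and at 125 and 127 in libraries 4 and 5, but at 49 and 50.4 in SIS ECM libraries 1 and 3 and at 101, 91.5 and 95.7 in libraries 4 to 6. The cultures lay far apart in numbers 1 to 3 and close together in numbers 4 to 6 (interaction 1.45 ± 0.08, adjusted p = 2.8e-11). Ankrd37 was at 45.4 to 49.1 and then 39.7 to 42.5 CPM in cells alone and at 6.33 to 7.9 and then 26 to 28.4 with SIS ECM (2.16 ± 0.12, adjusted p = 5.5e-11). Bhlhe40, a transcriptional repressor, moved mainly in cells alone, from 129 to 145 CPM in numbers 1 to 3 to 58.6 to 60.1 in numbers 4 and 5, and stood at 51.1 to 61.1 in all SIS ECM libraries (1.38 ± 0.09, adjusted p = 4.5e-10).

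Glucose entry followed the same order. Hk2, the hexokinase that traps glucose (chromosome 6), was at 88.3, 81.7 and 77.9 CPM in cells-alone libraries 1 to 3 and at 54.2 and 56.1 in libraries 4 and 5, but at 22.4 and 22.6 in SIS ECM libraries 1 and 3 and at 51.5, 53.1 and 51.3 in libraries 4 to 6. Numbers 4 to 6 met at one level from both sides (interaction 1.79 ± 0.09, adjusted p = 2.8e-11), so that the fit over both cultures gave 0.25 ± 0.24 (adjusted p = 0.446). The glucose transporter Slc2a1 was at 139 to 143 and then 112 to 120 CPM in cells alone, and at 42.6 to 44.6 and then 84.4 to 89.4 with SIS ECM (1.27 ± 0.08, adjusted p = 1.8e-10). Of 19 genes of glucose uptake, glycolysis and lactate export, 9 were lower and none higher within cells alone, 7 were higher and 2 lower within SIS ECM, and the interaction was called for 10, all toward higher values with SIS ECM. Among enzymes further down the pathway, Gapdh (interaction −0.10, adjusted p = 0.475) and Tpi1 (−0.05, adjusted p = 0.707) passed neither the interaction nor the range test. Pgk1 was lower over both cultures (−0.25 ± 0.05, adjusted p = 0.00107), and Pgam1 was lower (−0.21 ± 0.05, adjusted p = 0.00668) with an interaction of 0.26 (adjusted p = 0.0155). These 4 were named after their values were seen.

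Mitochondrial, ribosomal and proteasome groups had smaller median differences within SIS ECM than within cells alone. All 11 interaction calls among the 13 mitochondrially encoded genes were toward lower values with SIS ECM. For mt-Atp6 the range difference was 1.33 in cells alone and 0.59 with SIS ECM (interaction −0.74 ± 0.18, adjusted p = 0.00604). Of nuclear respiratory subunits 33 were called toward lower values with SIS ECM, of proteasome subunits 23 and of ribosomal proteins 33. With library totals as the only scaling these became 14, 9 and 0, and without SIS ECM library 3 they became 10, 10 and 0. Ribosomal proteins had 77 of 78 higher within cells alone and 68 within SIS ECM. Nuclear respiratory subunits had 67 of 74 higher within cells alone and 37 higher and 1 lower within SIS ECM. Proteasome subunits had 22 of 31 higher and 1 lower within cells alone (median 0.29), but 5 higher and 7 lower within SIS ECM (median 0.02). Lysosomal genes were lower in 25 of 33 within SIS ECM and 14 of 33 within cells alone, with 17 of 19 interaction calls toward lower values with SIS ECM (8 without SIS ECM library 3).

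The same number ranges can be drawn in CT26, a second mouse colorectal line of the study with 12 libraries. There 6514 of 12546 genes (51.9%) differed. Over 11729 genes tested in both lines the log2 fold changes, from separate libraries, had a Pearson correlation of 0.631 (Spearman 0.646). Of 3467 genes called in both, 3357 had the same direction, which is 68.8% of the 4877 called in MC38 and 54.2% of the 6191 called in CT26 among genes tested in both. Ribosomal proteins (72 higher, none lower, median 0.58), nuclear respiratory subunits (54 higher, 1 lower, 0.41) and collagens and matrix glycoproteins (26 lower, 1 higher, −0.55) had the sign seen in MC38. All 13 mitochondrially encoded proteins were higher in CT26 (median 1.09), mt-Nd6 included (0.83).

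The difference between lines was called for 1876 of 14445 genes (13.0%), and for 1155 without MC38 SIS ECM library 3 and 1204 without MC38 SIS ECM library 1. The split was 781 higher and 1095 lower in MC38 under TMM, 968 and 742 with RLE factors, 1122 and 918 by DESeq2 and 1886 and 404 with library totals alone, which move the median of all genes from −0.02 to 0.11. Rcor1 differed between ranges in MC38 and had a log2 fold change of 0.02 in CT26 (line interaction −1.04 ± 0.07, adjusted p = 7.2e-10). Kdm1b (−0.24 in CT26, interaction −0.96), Rab11fip1 (−0.44, −0.62) and Slc7a11 (−0.57, −0.47) had a negative change in both lines and a larger one in MC38. Ackr3 (0.13 in CT26, interaction −1.23) and Scml4 (0.09, −1.54), lower in MC38, had small positive values in CT26. Hspa8 was higher by more in MC38 (0.42 in CT26, interaction 0.60 ± 0.06, adjusted p = 2.1e-06).

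Interferon, chaperone and early response lists set the lines apart. Of 33 interferon-stimulated genes, 8 were higher and 6 lower in MC38, and in CT26 none was higher and 23 were lower (median −0.47). The MC38 counts depended on culture, with 13 higher and 1 lower in cells alone and 3 higher and 8 lower with SIS ECM. The culture interaction was called for 10 toward lower values with SIS ECM (6 without SIS ECM library 3) and for 1, Oas2, toward higher values. The line interaction was called for 18 of the 33, all toward higher values in MC38. Oas2, an antiviral oligoadenylate synthetase, was at 31.4 to 39.8 CPM in MC38 numbers 1 to 3 and at 46.8 to 75.1 in numbers 4 to 6 (0.78 ± 0.09, adjusted p = 1.7e-05), against −0.13 in CT26. Endoplasmic reticulum chaperones had 8 of 21 higher and 3 lower in MC38 against 16 lower and none higher in CT26, with 13 interactions called, all toward MC38. Hspa5, the BiP chaperone, was at −0.04 ± 0.05 in MC38 and −0.47 in CT26, and its cofactor Sdf2l1 at 0.85 ± 0.09 and 0.08. Immediate early genes had 3 of 31 higher and 7 lower in MC38 against 19 lower in CT26, with 10 interactions called toward MC38. The death receptor gene Fas was at 8.85 to 10.1 CPM in MC38 numbers 1 to 3 and at 15.1 to 16.9 in numbers 4 to 6 (0.78 ± 0.07, adjusted p = 1.4e-06), with −0.36 in CT26 (adjusted p = 0.284). The 3 lists kept 9 or more line interactions toward MC38, and none the other way, in each fit that left out 1 MC38 library and under each scaling tried.

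**Figure D5:**
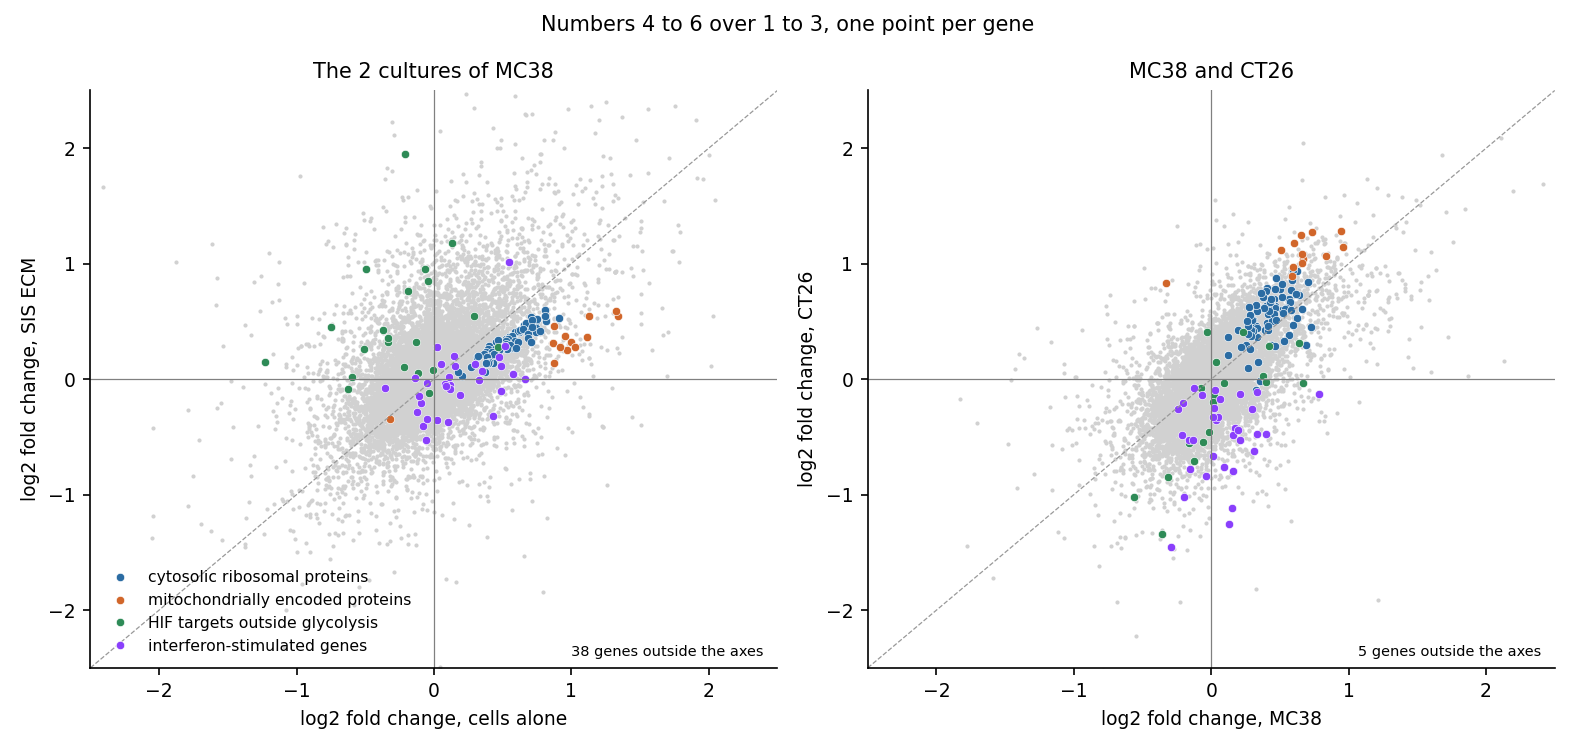
Log2 fold change of numbers 4 to 6 over 1 to 3 for every tested gene, with SIS ECM against cells alone (left) and CT26 against MC38 (right), 4 lists coloured and the dashed line marking equality. Most HIF targets lie above the line on the left, and most interferon-stimulated genes lie below it on the right (median −0.47 in CT26).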

How the data were processed

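The authors deposited expected counts per gene, with 55450 mouse genes, not normalised. Per the submitters' processing notes, cutadapt 1.18, STAR 2.7.0f, RSEM 1.3.1, limma and the builds mm10 and hg38 were used, with no step given for each. Whether counting used strand is not stated in any label or header read here. Between 2352 and 2621 values per library were not whole, so values were rounded. All per-sample columns were mapped to labels. Genes were tested with edgeR 4.0.16 (R 4.3.3), quasi-likelihood F test, two-sided, TMM factors (0.959 to 1.04), filterByExpr with a minimum count of 10, and Benjamini-Hochberg adjustment at 0.05 over all genes tested. The model held culture and number range, a culture by range interaction was fitted separately, and lines were compared over 22 mouse libraries. Gene positions are those of mm10 (GRCm38) in GENCODE M21. Library measures were tested by exact permutation within cultures. On simulated MC38 data with 13522 genes the fit found 96% of changes of 0.5 and 100% of changes of 1 (log2), and 5.77% of calls were false. That simulation changed 100 genes by each size, none below a minimum mean CPM, and set no culture effect. In the deposited data 39.7% of genes were called and 21.0% had a culture interaction, so these rates need not hold there.

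Named genes were the 12 highest and 12 lowest by log2 fold change (mean log2 CPM of at least 2, no overlap between ranges), the 3 members of each list with the smallest adjusted p, up to 5 genes of the culture interaction, and the 6 highest and 6 lowest called in the line interaction. Some genes this rule names are not reported here. The comparison, lists and rule were chosen with earlier results of these data known. Lists are described by counts and medians, without a set test. Alternatives were DESeq2 1.42.0, limma-voom 3.58.1 with and without a replicate block, other scalings and filters, equal depth, length and GC trends removed, no culture term, and each library left out.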

Additional observations from a re-analysis of the deposited data

Results flagged for a closer look

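3 single libraries stood apart from the others of their range by Dixon's test at 95%, among 78 tests, of which chance gives about 1 in 20. Trim7 was at 9.48 CPM in cells-alone library 4, erythroid markers summed to 0.931 CPM in cells-alone library 1, and long non-coding and antisense genes took 1.75% of counts in SIS ECM library 5.

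Several named genes had a range difference that depended on culture (edgeR's quasi-likelihood test of the interaction, SIS ECM minus cells alone, log2). It was positive for Ankrd37 (2.16), Hk2 (1.79), Fgf11 (1.58), Egln3 (1.45), Bhlhe40 (1.38), Cntnap1 (1.32), Slc2a1 (1.27), Trim7 (1.06), Ppm1e (0.71) and Ikzf2 (0.50). It was negative for Scml4 (−0.99), mt-Nd4l (−0.80), mt-Atp6 (−0.74), Tle4 (−0.56), Rab11fip1 (−0.40) and Kdm1b (−0.29). Fgf11 stood at 1.92 and 1.19 CPM in SIS ECM libraries 1 and 3 and at 6.09 to 7.27 in libraries 4 to 6.

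The range difference also differed between the lines for named genes (MC38 minus CT26, log2). It was larger in MC38 for Fas (1.12), Oas2 (0.89), Sdf2l1 (0.74) and Hspa8 (0.60). It was smaller or more negative for Scml4 (−1.54), Ackr3 (−1.23), Rcor1 (−1.04), Kdm1b (−0.96), Rab11fip1 (−0.62), mt-Nd4 (−0.56), Slc7a11 (−0.47) and the DNA demethylase gene Tet2 (−0.43).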

How the results depend on the processing

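The count of genes differing between ranges stayed between 4375 and 5134 with one library left out, and was 5020 by DESeq2, 5387 without a filter, 4002 without a culture term, 5485 with length and GC trends removed and 5204 at equal depth. The split of higher and lower genes was 2206 and 3089 with library totals alone and 2320 and 3165 with length and GC trends removed. In a fit over all mouse libraries it was 2023 and 2777. Of 145 named genes 141 were called, and 133 of these kept call and direction in each of the 22 settings that tests them, the exceptions being Bhlhe40, Cd68, Eif2ak2, Itgb8, Mif, P4ha2, Smtn and mt-Atp8. Hk2, Egln3, Ankrd37 and Slc2a1 had no call over both cultures. With one MC38 library left out, the culture interaction was called for 1453 to 3056 genes and the line interaction for 1155 to 2155. The replicate block, with a fitted correlation of −0.32, gave 6580 calls in limma-voom, against 5350 without it. Deviations of same-numbered libraries from their group means had correlations of −0.0754 to −0.0177, for numbers 1, 3, 4 and 5. Each group mean came from only 2 or 3 libraries, so these values cannot decide whether the numbers pair libraries. A fixed block could not be fitted beside the range. Signs turned for mt-Atp8 with length and GC trends removed (−0.151), for Hk2 (−0.138), Egln3 (−0.225) and Slc2a1 (−0.051) with no culture term, and for Hk2 (−0.005 and −0.002) and Egln3 (−0.012 and −0.001) without SIS ECM library 1 or 3. With one library left out these 2 genes reached at most 0.501 and 0.392. Histone genes had a median of 0.004 at a mean of at least 1 CPM. At a mean log2 CPM of at least 4 the medians of 12 chromosomes turned from positive to negative, among them 1 (−0.0264), 2 (−0.0176), 6 (−0.0477), 9 (−0.0292) and 13 (−0.0142). The cause was not tested. With 2 or 3 libraries per culture and range, small differences may be missed.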

Other observations

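Gene types differed in their counts. Among 412 tested genes of the annotation class TEC (transcripts awaiting experimental tests), 162 were higher and 10 lower in numbers 4 to 6 (median 0.48), and among 344 long intergenic non-coding genes 101 were higher and 18 lower (0.26). Of 11716 protein-coding genes, 2162 were higher and 2624 lower (−0.01). These types also differed in level, with a median of mean log2 CPM of 0.0138, 0.414 and 4.93. Across all tested genes the log2 fold change had a Spearman correlation of −0.204 with mean log2 CPM. The part of level in the counts by type was not tested. The share of counts from TEC genes was 0.108% in numbers 1 to 3 and 0.153% in numbers 4 to 6 (exact permutation p = 0.02), while the shares of long non-coding and antisense genes (1.46 and 1.52%, exact permutation p = 0.49) and of nuclear-retained RNAs (0.5 and 0.499%, exact permutation p = 0.86) did not pass.

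The linker histone gene Hist1h1c was at 3.81 to 8.25 CPM in numbers 1 to 3 and at 1.74 to 2.11 in numbers 4 to 6 (−1.59 ± 0.16, adjusted p = 3.5e-06), and the iron exporter gene Slc40a1 was at 4.04 to 5.53 and at 1.81 to 2.44 CPM (−1.08 ± 0.13, adjusted p = 2.0e-05). Medians over all genes of a chromosome stayed between −0.06 (chromosome 18) and 0.06 (chromosome 17).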
